A study of Mus musculus with 8 samples.

Results

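Potassium channel genes were examined in pericytes and vascular smooth muscle cells (SMCs) sorted from mouse skeletal muscle. Members were all rows of the expression table whose symbol starts with Kcn, continues with subfamily letters and ends in a number, with Kcnj8 left out. There were 94 such genes among the 37979 genes listed, under 92 symbols, because Kcnb2 and Kcnh8 were each listed under 2 identifiers. One of them, Kcna10, was listed at 0 in every library, so 93 were tested. The 41 genes that reached 1 FPKM in at least 1 library are described gene by gene. FPKM count sequenced fragments relative to transcript length and to the mapped total, so levels may be set side by side between genes.

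Bulk RNAseq libraries were made from the hindlimb of 3- to 4-month-old Ai14+/-;SM22α-Cre+ mice of both sexes. In these mice Cre under the SM22α promoter marks cells permanently with tdTomato, a red fluorescent protein, and both groups came from the same genotype, with no treatment. Pericytes were sorted as DAPIlow, PDGFRβ+ and tdTomato- cells without CD31 or CD45, and SMCs as the tdTomato+ cells of the same gate, with 4 libraries in each group, each pooled from several sorts. This gate is the one in the sample labels, whereas a supplementary legend of the study writes both populations as CD31+. A pericyte in which the SM22α promoter had ever been active would have been sorted with the SMCs, and a PDGFRβ+ cell of another type without tdTomato would have been sorted with the pericytes.

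Potassium channels let K+ leave the cell and so set the membrane potential. In vascular smooth muscle, opening them hyperpolarises the membrane, closes voltage-gated calcium channels and relaxes the vessel. The classes were voltage-gated α subunits, their auxiliary subunits, calcium- and sodium-activated channels with their β subunits, inward rectifiers, and two-pore channels, which carry the resting leak. In lymphocytes, Kcna3 (Kv1.3) and Kcnn4 (KCa3.1) are known to sustain calcium entry through store-operated channels.

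The segment shared by the pore-forming members is the selectivity filter, the short loop that admits K+ and keeps out Na+. It was searched for in the longest coding sequence of each gene as 4 codons in frame on the coding strand, NTN, GGN, TAN or TTN, and GGN. A match was found in 74 of the 78 pore-forming members, in 0 of the 16 auxiliary members and in 5.1% of 22737 protein-coding genes. The 4 pore-forming members without a match were the listings of Kcnb2 and Kcnh8 with short gene models, Kcnk1 and Kcnk7. Channels of the Kcnk subfamily carry the loop in duplicate, and 11 of the 14 had at least 2 matches, against 0 of the other pore-forming members. The segment is shown for 6 pore-forming genes on which the results turn, 45 coding bases each, 5′ to 3′ on the coding strand, from GENCODE transcripts on NCBI Build 37, with the match in capitals.
Kcna3: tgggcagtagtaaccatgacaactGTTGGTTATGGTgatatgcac
Kcna5: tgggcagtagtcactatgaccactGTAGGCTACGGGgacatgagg
Kcnn4: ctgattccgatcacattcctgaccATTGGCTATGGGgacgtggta
Kcnma1: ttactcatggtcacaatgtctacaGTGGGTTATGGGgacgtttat
Kcnj13: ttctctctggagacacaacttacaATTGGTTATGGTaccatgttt
Kcnk2, match 1: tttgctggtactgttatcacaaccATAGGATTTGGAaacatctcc
Kcnk2, match 2: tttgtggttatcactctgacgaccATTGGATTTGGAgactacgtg
These segments lie at chr3:106840508-106840552 (+, Kcna3, single exon), chr6:126483754-126483798 (-, Kcna5, single exon), chr7:25164196-25164240 (+, Kcnn4, exon 4 of 9), chr14:24347626-24347670 (-, Kcnma1, exon 7 of 30) and chr1:89285587-89285631 (-, Kcnj13, exon 2 of 3). Match 1 of Kcnk2 runs from exon 3 into exon 4 across an intron, at chr1:191082761-191119500 (-), and match 2 lies in exon 5 of 7 at chr1:191080451-191080495 (-). Kcna3 and Kcna5, which belong to one subfamily, were identical at 34 of the 45 bases. The 2 matches within Kcnk2 were identical at 28, and Kcna3 and Kcnn4 at 20.

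Marker genes were measured first, because the gate could hold other cells. All 8 T cell markers and all 6 B cell markers were higher in pericytes, and the summed T cell level was 1627 to 2473 FPKM in pericytes against 22.1 to 36.8 in SMCs (B cells, 830.5 to 2027 against 9.91 to 32.6). All 6 fibroblast markers, 5 of 7 endothelial markers and 5 of 7 matched macrophage markers were higher in SMCs, with sums of 3975 to 6280 against 334 to 607 FPKM, 235 to 850 against 51.1 to 114 FPKM and 356 to 552 against 80.9 to 194 FPKM. Of the 5 pericyte markers, Rgs5 and Vtn were higher in SMCs and 3 were not called, so the listed markers did not set the tdTomato- libraries apart as pericytes. None of the 7 contractile smooth muscle markers, which summed to 881 to 2837 FPKM in pericytes and 2816 to 8058 FPKM in SMCs, passed the test. None of the 7 skeletal muscle fibre markers or the 5 Schwann cell markers did either, and no marker in these 9 lists was at 0 in all libraries of a group. The part of any of these cells in the results on channel genes was not tested, and in bulk samples fewer cells of a type and less RNA per cell cannot be told apart.

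FPKM carry no counts, so the depth was estimated from the steps between low values of genes with 1 transcript. One FPKM over 1 kb of transcript stood for about 19.4 to 23.3 fragments in pericyte libraries and 22.0 to 23.4 in SMC libraries. Groups were compared by limma on log2(FPKM + 1), a scale that understates the change of low genes. Differences are given as pericytes minus SMCs on that scale with their standard error (SE), and q is the Benjamini-Hochberg adjusted p over all 27414 genes with a value above 0 in at least 1 library. A gene was called at a q below 0.05, and enriched where the log2 fold change was also above 2. Nothing in the sources used here says whether same-numbered libraries share animals. The main test treated all libraries as independent, so its q makes no allowance for such sharing. A fit with the replicate number as a block does. Calls lost in that fit are marked by gene, and its gains are given at the end. In both groups, libraries 1 and 2 differed from libraries 3 and 4 in many genes, and the difference within each pair of libraries is given beside the main results. A fit within a pair holds 2 libraries against 2, so a call can be lost there without a smaller difference.

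More channel genes were higher in SMCs than in pericytes. In SMCs 15 of the 93 tested genes (16.1%) were higher, against 11.2% of all genes tested. In pericytes 5 (5.38%) were higher, against 10.6% of all genes tested, and 73 were not called. Among the 41 described genes, 12 (29.3%) were higher in SMCs and 4 (9.76%) in pericytes, whereas among all 16294 genes that reached 1 FPKM in at least 1 library the shares were 17.7% and 17.3%. These described genes are no support for a direction, since 6 of the 12 and 3 of the 4 reached 1 FPKM only in the group where they were higher. The median log2 difference over all 93 tested channel genes was -0.03, against 0.02 for all genes tested. In pericytes Kcnab2 was enriched, 1.08% of the 93 tested genes, against 3.24% of all genes tested and 5.45% of those that reached 1 FPKM. In SMCs Kcnj13 and Kcnk2 were enriched (2.15%), against 2.66% and 4.47%. The counts of 1 and 2 became 3 and 7 with a pseudocount of 0.1, and 5 in SMCs under scaling to a fixed sum. Groups did not overlap for 15 genes that were higher in SMC libraries (12.5% of all genes tested, 19.2% of those that reached 1 FPKM) and for 5 that were higher in pericyte libraries (12.1% and 19%).

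**Figure D1:**
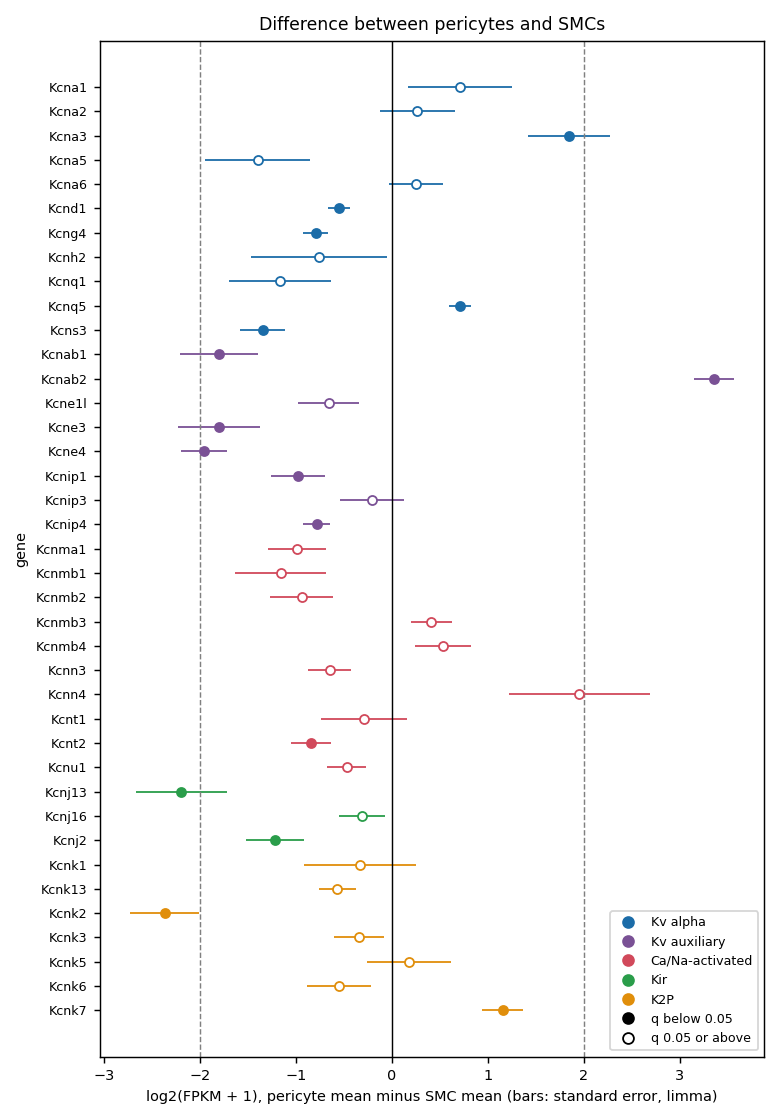
Difference in log2(FPKM + 1), pericytes minus SMCs, for 39 of the 41 described potassium channel genes grouped by class, with the standard error from limma as bars and dashed lines at -2 and 2; filled points have a q below 0.05. Kcnab2 lies farthest to the pericyte side at 3.36 and Kcnk2 farthest to the SMC side at -2.37.

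The levels of the channel genes differed between the groups in order as well as in amount. In pericytes the highest mean levels were 51.2 FPKM for Kcnn4, 25.7 for Kcne4, 19.5 for Kcnab2, 7.91 for Kcnk1 and 6.88 for Kcnab1. In SMCs they were 101.9 FPKM for Kcne4, 27.3 for Kcnab1, 23.8 for Kcnj13, 19.2 for Kcnn4 and 14.3 for Kcnk1. Kcne4 stood clear of the other genes in every SMC library, whereas Kcnab1, Kcnj13, Kcnn4 and Kcnk1 overlapped with one another in theirs. The SMC means of Kcnn4 and Kcnk1 rest largely on SMC library 3, at 53.2 and 38.3 FPKM. In the other SMC libraries Kcnn4 had 4.57 to 13.9 FPKM and Kcnk1 5.41 to 7.38 FPKM. The summed level of all members was 122 to 214 FPKM in pericytes and 178 to 402 FPKM in SMCs, and the groups overlapped. Over all genes, FPKM summed to 1190435 in pericyte library 2 and to 656405 to 782014 in the other libraries, so the totals were not equal between libraries. Only 7 genes reached 1 FPKM in all 8 libraries, and 24 did so in at least 4. Just inside the threshold lay Kcnmb3 with a highest value of 1.004 FPKM, Kcnd1 with 1.04 and Kcnq5 with 1.17. Just outside lay Kcnj15 with 0.995, Kcnab3 with 0.956 and Kcnj11 with 0.912.

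**Figure D2:**
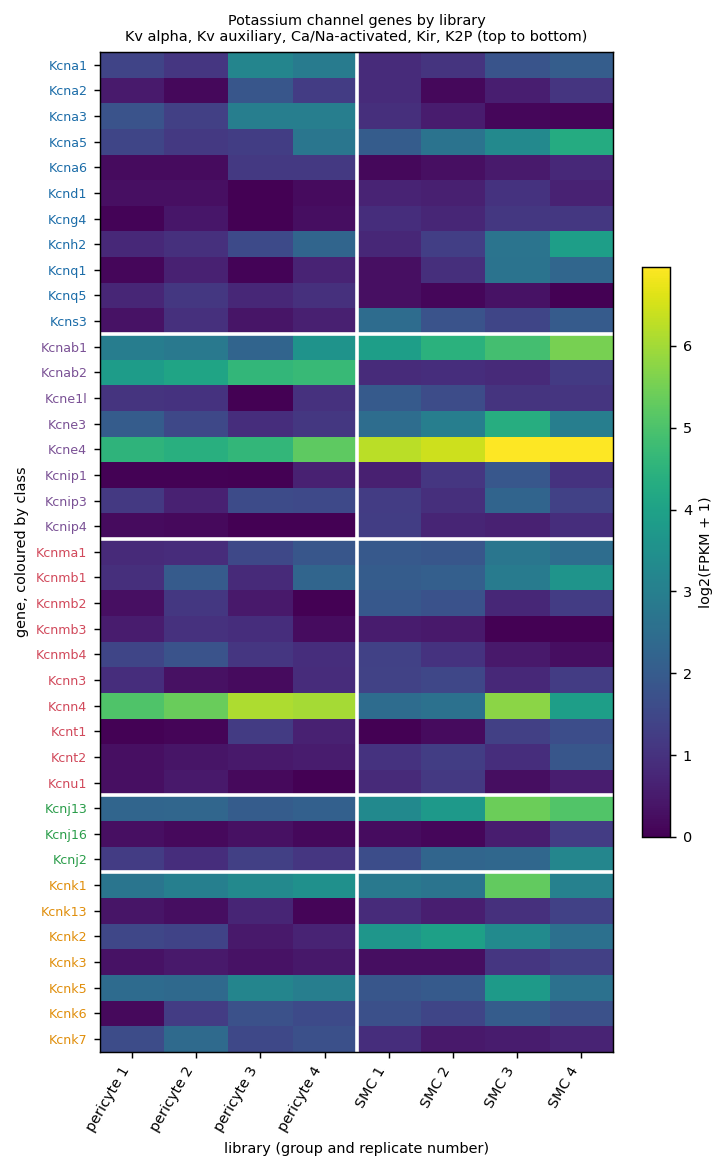
Level of 39 of the 41 described potassium channel genes in each of the 8 libraries as log2(FPKM + 1), with rows grouped by class and brighter colours for higher levels. Kcne4 is the brightest row in SMC libraries, Kcnn4 the brightest in pericyte libraries, and many rows stay dark throughout.

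Auxiliary subunits of voltage-gated channels differed in both directions. Of 12 genes, 5 were higher in SMCs and 1 was higher in pericytes, where 11.2% and 10.6% of all genes tested were. Kcnab2, at chr4:151764851-151851980 (-), encodes the Kvβ2 subunit, a cytoplasmic partner of Kv1 channels. It had 13.5, 15.7, 23.7 and 25.0 FPKM in pericyte libraries 1 to 4 and 0.826, 0.898, 0.770 and 1.27 FPKM in SMC libraries 1 to 4. Every pericyte library lay far above every SMC library, and the means differed 20.7-fold (log2 difference 3.36, SE 0.21, limma q = 6.6e-05). The difference was 3.06 (q = 0.0143) within libraries 1 and 2 and 3.66 (q = 0.00636) within libraries 3 and 4. An estimated 1126 to 2281 fragments lay behind the pericyte values and 68 to 117 behind the SMC values.

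Kcnab1, the paralogue that encodes Kvβ1, differed the other way. Its level was 6.69, 6.09, 3.70 and 11.0 FPKM in pericytes and 14.1, 20.9, 28.3 and 45.7 FPKM in SMCs, with no overlap. The means differed 3.96-fold (log2 difference -1.80, SE 0.41, limma q = 0.0181). The third paralogue, Kcnab3, stayed below 1 FPKM in every library. The call for Kcnab1 was lost without SMC library 3 (q = 0.0508) and within libraries 1 and 2 (-1.30, q = 0.0626) or libraries 3 and 4 (-2.30, q = 0.0726) alone.

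Kcne genes encode single-span β subunits that join Kv α subunits in the membrane. Kcne4, at chr1:78813502-78816599 (+), whose product is known to inhibit several Kv1 and Kv7 channels, was the most abundant of all members in SMCs. It had 21.9, 20.2, 23.7 and 36.7 FPKM in pericytes and 74.9, 86.4, 122 and 124 FPKM in SMCs. The lowest SMC value was above the highest pericyte value, and the means of 25.7 ± 7.52 and 101.9 ± 25.0 FPKM (SD, n = 4 each) differed 3.97-fold (log2 difference -1.95, SE 0.24, limma q = 0.00128). The difference was -1.88 within libraries 1 and 2 (q = 0.0189) and -2.02 within libraries 3 and 4 (q = 0.0186).

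Kcne3, at chr7:107327207-107333374 (+), was also higher in SMCs. It had 3.10, 1.87, 0.867 and 1.21 FPKM in pericytes and 4.67, 6.88, 19.1 and 6.91 FPKM in SMCs. SMC library 3 stood well above the other SMC libraries, but even the lowest exceeded all pericyte libraries (log2 difference -1.80, SE 0.43, limma q = 0.0219). The call was lost without pericyte library 3 (q = 0.0599) or 4 (q = 0.0568) and within libraries 1 and 2 (-0.96, q = 0.148), and held within libraries 3 and 4 (-2.64, q = 0.0454). With the replicate number as a block, Kcne3 was not called (q = 0.0834). Kcne1l averaged 0.772 ± 0.515 FPKM in pericytes and 1.79 ± 0.908 FPKM in SMCs (SD, n = 4 each), and its groups overlapped (limma q = 0.21).

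Kcnip genes encode the calcium-binding KChIP partners of Kv4 channels. Kcnip4 averaged 0.0702 FPKM in pericytes and 0.866 FPKM in SMCs, without overlap (log2 difference -0.79, limma q = 0.00722), a call lost within libraries 1 and 2 at the same size of difference (-0.80, q = 0.138). An estimated 7 fragments at most lay behind a pericyte value of Kcnip4. Kcnip1 averaged 0.153 and 1.35 FPKM and was higher in SMCs by a narrow margin (-0.98, limma q = 0.047), with pericyte library 4 at 0.553 FPKM, above SMC library 1 at 0.521. Leaving out any library other than pericyte library 4 or SMC library 1 ended that call (q up to 0.114). So did the replicate number as a block (q = 0.0853). Kcnip3 had 1.43 and 1.90 FPKM and was not called (limma q = 0.733).

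Voltage-gated α subunits form the pore. Of the 41 tested, 3 were higher in pericytes, 4 in SMCs and 34 were not called (all genes tested, 10.6% and 11.2% higher). Kcna3, at chr3:106839080-106841047 (+), encodes Kv1.3. Its level was 2.44, 1.48, 6.86 and 6.96 FPKM in pericytes and 0.919, 0.440, 0.0923 and 0.0664 FPKM in SMCs. Pericyte libraries 3 and 4 were highest and SMC libraries 3 and 4 lowest, so that the groups lay closest in libraries 1 and 2. The means differed 11.7-fold (log2 difference 1.84, SE 0.43, limma q = 0.0208), with 0.81 within libraries 1 and 2 (q = 0.168) and 2.87 within libraries 3 and 4 (q = 0.00565). The call was lost without pericyte library 3 (q = 0.051), SMC library 3 (q = 0.0581) or SMC library 4 (q = 0.057). It was also lost with the replicate number as a block (q = 0.0721). An estimated 3 to 40 fragments lay behind an SMC value. Kcna3 is a channel of lymphocytes, and the T and B cell markers given above were higher in the same libraries; their part in this difference was not tested.

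Other Kcna genes were not called. Kcna5, at chr6:126482571-126485573 (-), encodes Kv1.5, a delayed rectifier of arterial smooth muscle. It had 1.74, 1.23, 1.42 and 5.65 FPKM in pericytes and 3.07, 5.25, 8.65 and 18.4 FPKM in SMCs. Pericyte library 4 lay above 2 of the SMC libraries (log2 difference -1.40, SE 0.55, limma q = 0.127), and the difference passed with the library pairs as a covariate (q = 0.0461). Kcna1 had 1.69, 1.15, 7.95 and 6.46 FPKM in pericytes and 0.814, 1.05, 2.51 and 3.17 FPKM in SMCs. In both groups libraries 3 and 4 exceeded libraries 1 and 2, and the log2 difference was 0.71 (SE 0.54, limma q = 0.462; with the library pairs as a covariate, q = 0.0349). Kcna2 had 0.413, 0.115, 2.62 and 1.36 FPKM in pericytes and 0.83, 0.118, 0.506 and 1.10 FPKM in SMCs (0.26, SE 0.39, limma q = 0.715). For Kcna2 the sign turned within libraries 1 and 2 (-0.19) and without pericyte library 3 (-0.041). Kcna6 averaged 0.694 and 0.370 FPKM (limma q = 0.626).

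These genes lie in clusters. Kcna3 and Kcna2 are neighbours on chr3, with 63.4 kb between them, and Kcna10, at 0 in all libraries, is the next gene of the subfamily. Kcna5, Kcna1 and Kcna6 lie together on chr6, with gaps of 100.9 kb and 62.5 kb. Within the chr6 cluster the differences of -1.40 for Kcna5 and 0.71 for Kcna1 had opposite signs, and neither was called.

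Kcnq genes encode Kv7 channels, slowly opening voltage-gated channels. Kcnq5, at chr1:21388484-21952023 (-), had 0.669, 1.17, 0.721 and 0.950 FPKM in pericytes and 0.229, 0.0897, 0.261 and 0.0120 FPKM in SMCs. The groups did not overlap, but the level was low (log2 difference 0.71, SE 0.11, limma q = 0.00424). The call was lost within libraries 1 and 2 (0.72, q = 0.121) and within libraries 3 and 4 (0.70, q = 0.0625). Kcnq1 had 0.0882, 0.572, 0.0509 and 0.619 FPKM in pericytes and 0.223, 0.932, 5.29 and 3.94 FPKM in SMCs. SMC libraries 3 and 4 stood apart, and the log2 difference was -0.23 within libraries 1 and 2 (q = 0.761) and -2.10 within libraries 3 and 4 (q = 0.0219), with -1.16 over all (limma q = 0.187). Without SMC library 1 it just passed, at -1.58.

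Kcns3 and Kcng4 encode electrically silent α subunits that assemble with other α subunits. Kcns3, at chr12:11097008-11157648 (-), averaged 0.519 ± 0.314 FPKM in pericytes and 2.94 ± 1.18 FPKM in SMCs (SD, n = 4 each), and every SMC library lay above every pericyte library (log2 difference -1.35, SE 0.24, limma q = 0.00619). Kcng4 averaged 0.149 and 0.991 FPKM, also without overlap (-0.79, SE 0.13, limma q = 0.00476). Kcnd1, a Kv4 α subunit, averaged 0.147 and 0.688 FPKM (-0.55, SE 0.11, limma q = 0.0122). Within libraries 1 and 2 the calls for Kcns3 (-1.47, q = 0.111), Kcng4 (-0.58, q = 0.163) and Kcnd1 (-0.37, q = 0.149) were lost, and within libraries 3 and 4 that for Kcnd1 (-0.74, q = 0.066). Kcnd1 was also not called with the replicate number as a block (q = 0.0628). Kcnh2, the hERG channel, ran from 0.747 to 3.79 FPKM in pericytes and from 0.698 to 14.0 FPKM in SMCs (-0.76, SE 0.71, limma q = 0.561).

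Kcnh3 and Kcns1, both called, stayed below 1 FPKM. Kcnh3 averaged 0.264 FPKM in pericytes and 0.00593 FPKM in SMCs, where 3 of the 4 libraries were listed at 0 (log2 difference 0.32, limma q = 0.0253). Kcns1 averaged 0.0317 and 0.301 FPKM (-0.33, limma q = 0.0209). The call for Kcnh3 was lost without pericyte library 1 or any single SMC library (q up to 0.0657), and that for Kcns1 without pericyte library 1 or SMC library 2 (q up to 0.0559). Kcnh3 was also not called with the replicate number as a block (q = 0.0641). None of the 4 Kcnc genes, the single Kcnf gene or the 2 Kcnv genes reached 1 FPKM.

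**Figure D3:**
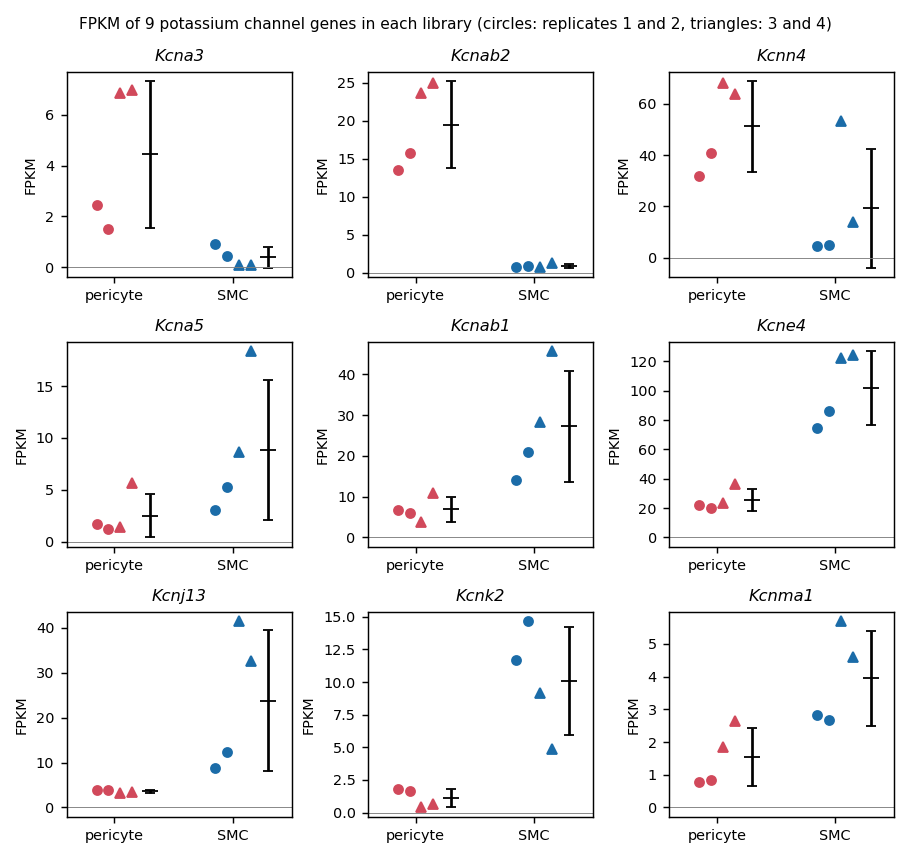
FPKM (linear y axis, a separate scale in each panel) of 9 potassium channel genes in the 4 pericyte and 4 SMC libraries, with circles for libraries 1 and 2, triangles for libraries 3 and 4, and the mean ± SD of each group as a bar. Kcnab2 is separated most widely, from 13.5 to 25.0 FPKM in pericytes and from 0.770 to 1.27 FPKM in SMCs, whereas Kcnn4 overlaps through SMC library 3 at 53.2 FPKM.

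Calcium- and sodium-activated channels and their subunits numbered 12, of which 2 were higher in SMCs (11.2% of all genes tested) and 10 were not called. Kcnn4, at chr7:25155282-25170228 (+), encodes the intermediate-conductance channel KCa3.1, which opens on calcium through calmodulin. It was the most abundant member in pericytes, with 31.8, 40.8, 68.0 and 64.0 FPKM, and had 4.57, 5.08, 53.2 and 13.9 FPKM in SMCs. SMC library 3 lay within the pericyte range and the other SMC libraries below it. The log2 difference of 1.96 (SE 0.73) did not pass (limma q = 0.11). It was 2.65 without SMC library 3 (q = 0.00944), 2.67 within libraries 1 and 2 (q = 0.0177) and 1.24 within libraries 3 and 4 (q = 0.322), and it passed with the library pairs as a covariate (q = 0.0244). Kcnn4 is known from activated lymphocytes as well as from proliferating smooth muscle and endothelium, and the part of the cells marked above was not tested.

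Kcnma1, at chr14:24117983-24622526 (-), encodes the pore of the large-conductance BK channel, which smooth muscle opens on local calcium release. It had 0.783, 0.849, 1.84 and 2.65 FPKM in pericytes and 2.83, 2.67, 5.70 and 4.61 FPKM in SMCs. The groups did not overlap, although SMC library 2 exceeded pericyte library 4 only just. The log2 difference of -0.99 (SE 0.30) missed the threshold over all libraries (limma q = 0.0573) and passed within libraries 1 and 2 (-1.05, q = 0.0278), within libraries 3 and 4 (-0.93, q = 0.0472) and without pericyte library 4 (-1.18, q = 0.0322), and with the library pairs as a covariate (q = 0.000873). Its smooth muscle β1 subunit, Kcnmb1, had 0.902, 2.97, 0.788 and 3.81 FPKM in pericytes and 3.07, 3.35, 6.44 and 11.1 FPKM in SMCs. Pericyte library 4 exceeded 2 SMC libraries, and the difference was not called (-1.16, SE 0.47, limma q = 0.142). Kcnmb1 lies within the span of Kcnip1 on the other strand, and the annotated exons share 0 bases.

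The other β subunits were low and were not called. Kcnmb2 averaged 0.452 FPKM in pericytes and 1.80 FPKM in SMCs (limma q = 0.0858), Kcnmb3 0.621 and 0.212 FPKM (q = 0.256) and Kcnmb4 1.56 and 0.794 FPKM (q = 0.274). Kcnmb2 passed when pericyte library 2 (q = 0.0345) or SMC library 3 (q = 0.0454) was left out. With the library pairs as a covariate, Kcnmb2 (q = 0.0251) and Kcnmb4 (q = 0.0224) passed. The small-conductance channel Kcnn3 had 0.896, 0.246, 0.151 and 0.857 FPKM in pericytes and 1.61, 1.82, 0.751 and 1.35 FPKM in SMCs (-0.65, SE 0.22, limma q = 0.0866). Kcnt2, a sodium-activated channel, averaged 0.343 and 1.48 FPKM, without overlap (-0.84, SE 0.21, limma q = 0.0266). That call was lost without SMC library 2 or any single pericyte library (q = 0.0509 to 0.0686), and within libraries 1 and 2 (-0.80, q = 0.0643) or 3 and 4 (-0.88, q = 0.203). Kcnn1 averaged 0.305 and 0.652 FPKM, also higher in SMCs (-0.34, limma q = 0.0229), a call lost without pericyte library 1 or 4 or SMC library 2 or 3 (q up to 0.0655). Quantile scaling or an intensity trend also ended that call. Kcnt1 (q = 0.726) and Kcnu1 (q = 0.155; with the library pairs as a covariate, q = 0.0338) were not called.

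Inward rectifiers pass K+ more readily into the cell than out of it and hold the resting potential. Of 14 genes, 3 were higher in SMCs (Kcnj13, Kcnj2 and Kcnj15; 11.2% of all genes tested) and 11 were not called, and only Kcnj13, Kcnj2 and Kcnj16 reached 1 FPKM in any library. Kcnj13, at chr1:89282938-89291304 (-), encodes Kir7.1. It had 3.86, 3.88, 3.11 and 3.36 FPKM in pericytes and 8.82, 12.3, 41.4 and 32.6 FPKM in SMCs. Pericyte values were nearly level, and SMC libraries 3 and 4 lay far above SMC libraries 1 and 2, which still exceeded all pericyte libraries. The means differed 6.70-fold (log2 difference -2.19, SE 0.47, limma q = 0.0148), with -1.23 within libraries 1 and 2 (q = 0.0503) and -3.16 within libraries 3 and 4 (q = 0.00674). Kcnj13 stayed higher in SMCs but was no longer enriched without SMC library 3 (-1.85, q = 0.0263) or 4 (-1.96, q = 0.039). Of its 1270 annotated exonic bases, 623 (49.1%) are shared with Gigyf2 on the opposite strand, and whether fragments were assigned by strand is not stated. Gigyf2 itself had 12.8 ± 3.86 FPKM in pericytes and 10.03 ± 1.54 FPKM in SMCs (SD, n = 4 each) and was not called (limma q = 0.383).

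Kcnj2, at chr11:110927478-110938135 (+), encodes Kir2.1, the strong rectifier known from small arteries and capillaries. It had 1.38, 0.871, 1.49 and 1.16 FPKM in pericytes and 2.16, 3.86, 4.06 and 8.14 FPKM in SMCs. The groups did not overlap, and the means differed 3.72-fold (log2 difference -1.22, SE 0.30, limma q = 0.026). Leaving out any library other than SMC library 1 or 4 ended the call (q = 0.0517 to 0.0613), with the same sign each time, as did libraries 1 and 2 (-0.89, q = 0.173) or 3 and 4 (-1.55, q = 0.0563) alone. With the replicate number as a block, Kcnj2 was not called (q = 0.0549). Its neighbour Kcnj16, 38.2 kb away, averaged 0.173 and 0.526 FPKM and was not called (q = 0.459). Kcnj15 averaged 0.0960 FPKM in pericytes and 0.668 FPKM in SMCs, higher in SMCs (-0.59, limma q = 0.0278), and did not reach 1 FPKM in any library. That call was lost in 6 of the 8 fits with a library left out, those without SMC library 4 or pericyte library 2 being the exceptions.

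Two-pore channels carry background K+ current. Of 14 genes, 1 was higher in pericytes (10.6% of all genes tested), 1 in SMCs (11.2%) and 12 were not called. Kcnk2, at chr1:191031816-191167711 (-), encodes TREK-1, a channel opened by stretch and polyunsaturated fatty acids. It had 1.79, 1.63, 0.396 and 0.632 FPKM in pericytes and 11.7, 14.7, 9.15 and 4.90 FPKM in SMCs. The lowest SMC library was well above the highest pericyte library, and the means differed 9.08-fold (log2 difference -2.37, SE 0.36, limma q = 0.00329). The difference was almost the same within libraries 1 and 2 (-2.38, q = 0.018) and within libraries 3 and 4 (-2.36, q = 0.022).

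Kcnk7, at chr19:5704367-5707101 (+), belongs to the two-pore family by sequence, and its product is not known to carry current alone. It had 2.05, 4.35, 1.85 and 2.25 FPKM in pericytes and 0.878, 0.387, 0.448 and 0.627 FPKM in SMCs. The groups did not overlap (log2 difference 1.16, SE 0.21, limma q = 0.00771; within libraries 1 and 2, 1.32, q = 0.131), and an estimated 11 to 24 fragments lay behind an SMC value. Kcnk1 (TWIK-1) had 5.56, 7.09, 8.70 and 10.3 FPKM in pericytes and 5.99, 5.41, 38.3 and 7.38 FPKM in SMCs. SMC library 3 stood alone, and the log2 difference of -0.34 (SE 0.58, limma q = 0.758) turned to 0.28 without it. Kcnk5 (TASK-2) averaged 5.85 ± 1.85 and 5.87 ± 4.76 FPKM (SD, n = 4 each; 0.18, SE 0.44, limma q = 0.833). The sign of Kcnk5 turned to -0.052 without SMC library 1, to -0.019 without SMC library 2 and to -0.00714 under scaling to a fixed sum. Kcnk3 (TASK-1), the acid-sensitive channel of pulmonary artery smooth muscle, had 0.255, 0.390, 0.257 and 0.354 FPKM in pericytes and 0.192, 0.191, 1.13 and 1.51 FPKM in SMCs (-0.34, SE 0.26, limma q = 0.466). The sign of Kcnk3 turned within libraries 1 and 2 (0.15), and the difference passed within libraries 3 and 4 (-0.83, q = 0.0288). Kcnk6 (q = 0.336) and Kcnk13 (q = 0.0778) were not called.

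The channel genes were also compared between libraries 3 and 4 and libraries 1 and 2. In 12 of the 41 described genes (29.3%) both libraries 3 and 4 exceeded both libraries 1 and 2 in each group, against 13.7% of all 16294 genes that reached 1 FPKM. Among them were Kcnma1, Kcnn4, Kcnt1, Kcnk1, Kcnk5, Kcnk6, Kcna1, Kcna6, Kcnh2, Kcne4 and Kcnip3. The reverse held for Kcnmb4, Kcnu1, Kcnk2 and Kcne1l (9.76%, against 15.9%). All 8 libraries carry the same batch entry in the sample labels, so no labelled batch separates them, and the source of the split was not tested. The calls for Kcnip1, Kcnh3, Kcns1, Kcnn1 and Kcnj15 were lost within either pair of libraries. The difference between pericytes and SMCs kept its sign between the library pairs in 35 of the 41 genes. It was larger in size within libraries 3 and 4 for 28. The 6 genes whose sign turned were Kcnj16, Kcnk1, Kcnk3, Kcnk5, Kcna2 and Kcna6, none of them called. SMC library 4 was the highest SMC library for 17 of the 41 genes (41.5%) and SMC library 3 for 13 (31.7%), against 26.9% and 19.2% of the 16294 genes. Described genes such as Kcnt1, Kcna6, Kcnj16 and Kcnk13 reached 1 FPKM only in libraries 3 or 4, so these shares describe the set and support no difference between libraries.

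**Figure D4:**
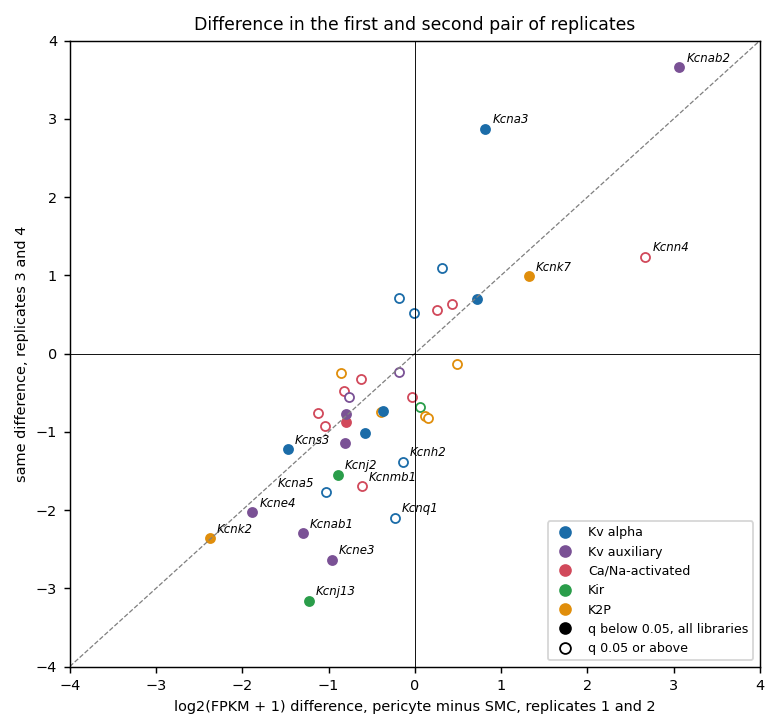
Difference in log2(FPKM + 1), pericytes minus SMCs, of 39 of the 41 described potassium channel genes within libraries 1 and 2 (x axis) and within libraries 3 and 4 (y axis), with the line of equality; filled points have a q below 0.05 over all 8 libraries. Kcne4 and Kcnk2 lie close to the line, while Kcna3, at 0.81 and 2.87, and Kcnj13, at -1.23 and -3.16, lie away from it.

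Other genes of membrane potential and calcium handling were listed by family for comparison. Of 58 such genes, 56 were matched and tested, of which 7 were higher in pericytes (12.5%, against 10.6% of all genes tested), 4 in SMCs (7.14%, against 11.2%) and 45 were not called. Orai2, a pore subunit of the store-operated calcium channel, had 25.7, 21.6, 41.6 and 35.4 FPKM in pericytes and 2.61, 3.16, 4.52 and 3.79 FPKM in SMCs (log2 difference 2.80, SE 0.23, limma q = 0.000219). It was the only gene of the 56 that was enriched in either group. The other 10 of the 11 genes of calcium release and store-operated entry were not called, including Orai1, Orai3, Stim1 and Stim2. Among 18 voltage-gated calcium channel genes, Cacna1e, Cacna1i and Cacna1s were higher in pericytes, and the auxiliary subunits Cacna2d1 and Cacnb4 in SMCs. Cacna1s averaged 5.46 FPKM in pericytes and 0.92 FPKM in SMCs. Cacna1e (0.370 and 0.0414 FPKM) and Cacna1i (0.200 and 0.00631 FPKM) stayed below 1 FPKM in every library. Cacna1c, the pore of the L-type channel of smooth muscle, averaged 0.249 and 0.304 FPKM and was not called (limma q = 0.826). Among 12 matched TRP-type cation channels, Trpc6 (1.37 and 3.45 FPKM) and Pkd2 (1.54 and 7.36 FPKM) were higher in SMCs. The sodium-potassium pump subunit Atp1b3 and the chloride transporter gene Clcn3 were also higher in pericytes.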

How the data were processed

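RNA of 8 libraries (4 pericyte and 4 SMC) was amplified from ultra-low input, built into Nextera XT libraries and sequenced in pairs. Reads were aligned by the authors with TopHat and Bowtie2 (NCBI Build 37), and the deposited unit is FPKM per gene and library. The program that computed FPKM and whether strand was used are not given in the sources used here. A pseudocount of 1 was added and log2 values went into limma (version 3.58.1, R 4.3.3; lmFit, eBayes, no covariate), the tool the study used. The 27414 genes not listed at 0 throughout were fitted, with Benjamini-Hochberg adjustment over them. On simulated data for this comparison (27414 genes), 68 of 100 genes changed by 2 log2 units and 91 of 100 changed by 4 were recovered, and 9 of 27214 unchanged genes were called. The changed genes were drawn only from those with a mean log2(FPKM + 1) above 2. Most channel genes lie below that level, so recovery was not measured for them. The simulated noise was independent between libraries and held no split between library pairs. Depth was estimated from low FPKM of genes with 1 transcript, and covers counting error only. GENCODE vM1 gave positions, exons and coding sequences for all 94 members and held 37195 of the 37979 listed identifiers.

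Groups came from the sample labels. Genes given with every library's value were those enriched in either group, the 5 most abundant in each group, the most abundant of each class in each group, and textbook channels of lymphocytes and vascular smooth muscle, with Kcne3, Kcnk7, Kcna1, Orai2 and other called genes given as well after their values were seen. Members and lists were chosen with earlier results of these data known. Alternatives were a pseudocount of 0.1, filters, scalings, a replicate block, library pairs, an intensity trend and leaving out each library. Some genes that are included in the counts are not reported here by name or drawn. Proteins and brain samples were not analysed here. Figures were drawn in Python 3.11.15 with matplotlib 3.10.9.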

Additional observations from a re-analysis of the deposited data

Results flagged for a closer look

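In groups of 4 libraries, the gap of a library to the nearest of the others was divided by the range of the group, both on log2(FPKM + 1). A library was marked where this ratio exceeded Dixon's 95% critical value. Levels below are given in FPKM, and the ratios are on the log2 scale. Of 90 groups of channel gene values tested, 4 were marked, and chance marks about 1 in 20. For Kcnk1, SMC library 3 had 38.3 FPKM against 5.41 to 7.38 FPKM in the others (ratio 0.852). For Kcnip1, pericyte library 4 had 0.553 FPKM against 0 to 0.0309 FPKM (ratio 0.931). For Kcne1l, pericyte library 3 was listed at 0 against 0.991 to 1.05 FPKM (ratio 0.957). For Kcnh3, SMC library 3 had 0.0237 FPKM and the others were listed at 0 (ratio 1.0). With all the others equal, the ratio is 1.0 at any level, so this mark says nothing about size.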

How the results depend on the processing

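Over 19 alternatives, Kcnab2, Kcne4 and Kcnk2 kept their direction and their call. Scaling moved the median of all genes by less than 0.1 log2 units. The 5 channel genes higher in pericytes became 8 with libraries 1 and 2 against 3 and 4 as a covariate and 2 with libraries 1 and 2 only. The 15 higher in SMCs became 21 with that covariate and 3 with libraries 1 and 2 only. They numbered 10 with all listed genes and 10 with 1 FPKM required in at least 4 libraries. Enriched genes, 1 in pericytes and 2 in SMCs, became 3 and 7 with a pseudocount of 0.1, 2 and 1 with libraries 1 and 2 only, 2 and 5 with libraries 3 and 4 only, and 5 in SMCs under scaling to a fixed sum. The 7 partner genes higher in pericytes became 4 with quantile scaling and 2 with libraries 1 and 2 only. The 4 higher in SMCs became 2 with all listed genes, 9 with the covariate and 8 with libraries 3 and 4 only. The calls for Kcne3, Kcnip1, Kcnj15, Kcnj2 and Kcnt2 were lost with all listed genes, and those for Kcnip1 and Kcnn1 under quantile scaling. Causes were not tested.

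Leaving out each library gave 3 to 6 channel genes higher in pericytes (3 without SMC library 4), 10 to 15 in SMCs, 1 to 2 and 1 to 5 enriched, and 5 to 11 and 2 to 4 partner genes. Enriched genes in pericytes numbered 2 without SMC library 1 or 3 or pericyte library 1 or 2. Enriched genes in SMCs numbered 1 without SMC library 3 or 4, 3 without SMC library 2 or pericyte library 1, 4 without pericyte library 4 and 5 without SMC library 1. Partner genes higher in pericytes numbered 11 without pericyte library 2, and those higher in SMCs numbered 2 without SMC library 2 or 3 or pericyte library 1 or 2. With the replicate number as a block, the test called 3 channel genes on the pericyte side and 13 on the SMC side, with 1 and 2 enriched and 8 and 5 partner genes. Under the block Kcna5 (q = 0.027) and Kcnma1 (q = 0.0105) passed, and Kcna3 (0.0721), Kcne3 (0.0834), Kcnd1 (0.0628), Kcnj2 (0.0549), Kcnip1 (0.0853) and Kcnh3 (0.0641) did not. With the covariate, Kcna1, Kcna5, Kcnma1, Kcnmb2, Kcnmb4, Kcnn4 and Kcnu1 were among the genes that passed as well (q = 0.000873 to 0.0461). Same-numbered libraries deviated together with correlations of 0.0794 to 0.474, and 5 of 8 libraries correlated best with their own number, so the numbers were not taken to pair the libraries. Signs turned, in genes not called, for Kcna2 (-0.19), Kcna6 (-0.012), Kcnj16 (0.063), Kcnk1 (0.12) and Kcnk3 (0.15) with libraries 1 and 2 only, for Kcnk5 with libraries 3 and 4 only (-0.13) and under scaling to a fixed sum (-0.00714), for Kcna2 without pericyte library 3 (range over libraries left out -0.041 to 0.53), for Kcnip3 (-0.38 to 0.061) and Kcnk1 (-0.60 to 0.28) without SMC library 3, and for Kcnk5 (-0.052 to 0.59) without SMC library 1 or 2. With 1 FPKM required in at least 4 libraries, 24 genes would be described in place of 41. Depth limits the lowest values, such as those of Kcnip4 in pericytes, with an estimated 7 fragments at most.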
